A study of Mus musculus with 24 samples.

Results

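The 42 genes described here encode enzymes of the citrate cycle, nuclear-encoded subunits of complexes I to IV of the respiratory chain, and cytochrome c. Each was found by its gene symbol and read from the transcript cluster, the gene-level unit of the array, that carried only that symbol and had the highest mean signal over the 12 arrays. Of the 42, 41 were measured, among 19920 genes in all: 13 of the citrate cycle, 4 of complex II, 12 of complex I, 6 of complex III, cytochrome c itself and 5 of complex IV. The remaining gene, Cox7c, lay only on 3 clusters that carry a further symbol, so it was not tested. On those 3 clusters the log2 signal lay between 12.96 and 13.18 in adult hearts, against 10.82 to 11.19 in E17.5 hearts.

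The study compared 6 groups of mouse material on Affymetrix gene arrays, with 2 arrays in each. The first 3 stages came from culture in serum-containing medium: embryonic stem (ES) cells before differentiation (day 0), embryonic bodies, which are clumps of differentiating cells (day 7), and cardiac bodies (day 14). Whole hearts were taken late in gestation (E17.5), on postnatal day 1 (P1) and in adulthood. The labels name no strain, cell line, sex or treatment, do not give the age of the adults, and do not say whether the 2 arrays of a group came from separate cultures or animals, so every p-value measures only the spread between these arrays. All comparisons of levels are on the log2 scale of the deposited signal, where a difference of 1 is a doubling of signal, and a gene was called changed at a Benjamini-Hochberg adjusted p under 0.05 over all 19920 genes in a limma fit of the 6 groups.

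In the citrate cycle, acetyl groups from pyruvate and fatty acids are oxidised in the mitochondrial matrix and the electrons are passed to NADH and to succinate dehydrogenase, which is also complex II of the chain. Complexes I and II pass electrons to ubiquinone, complex III passes them to cytochrome c, and complex IV passes them to oxygen, while complexes I, III and IV pump the protons that drive ATP synthase. Heart muscle relies on this pathway for most of its ATP and is packed with mitochondria, and the fetal heart relies more on glycolysis than the adult heart does.

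Array medians ran from 5.61 to 5.76 and the 2 arrays of a group correlated across genes at 0.968 to 0.988, genes not being independent replicates. The labelled stages carried their defining markers in most respects: Myh6, the heart muscle myosin, had 12.36 and 11.95 in cardiac bodies, against 5.26 and 5.27 in embryonic bodies. The pluripotency factor Pou5f1 had 11.83 and 11.83 in ES cells, 8.47 and 8.52 in embryonic bodies and 11.03 and 11.11 in cardiac bodies, so the cardiac bodies carried heart muscle and stem cell transcripts together. Embryonic body replicate 1 carried embryonic globin transcripts (Hbb-bh1 at 11.07, against 5.29 in replicate 2), and adult replicate 1 was low in the atrial light chain Myl7 (5.42, against 11.27 in replicate 2). In whole tissue and mixed cultures, fewer cells of a type and less RNA per cell cannot be told apart.

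The mean signal of the 41 genes was 9.79 in ES cells, 9.62 in embryonic bodies and 10.36 in cardiac bodies, and 11, 11.22 and 11.29 in E17.5, P1 and adult hearts. Every enzyme group was lowest in ES cells or embryonic bodies and intermediate in cardiac bodies. Beyond E17.5 the groups diverged: the complex I mean went on to 10.63 in P1 and 10.98 in adult hearts, while the complex II mean was 10.70 in E17.5, 10.87 in P1 and 10.70 in adult hearts. Cytochrome c had 11.52, 11.72 and 13.07 at the 3 heart stages.

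**Figure D1:**
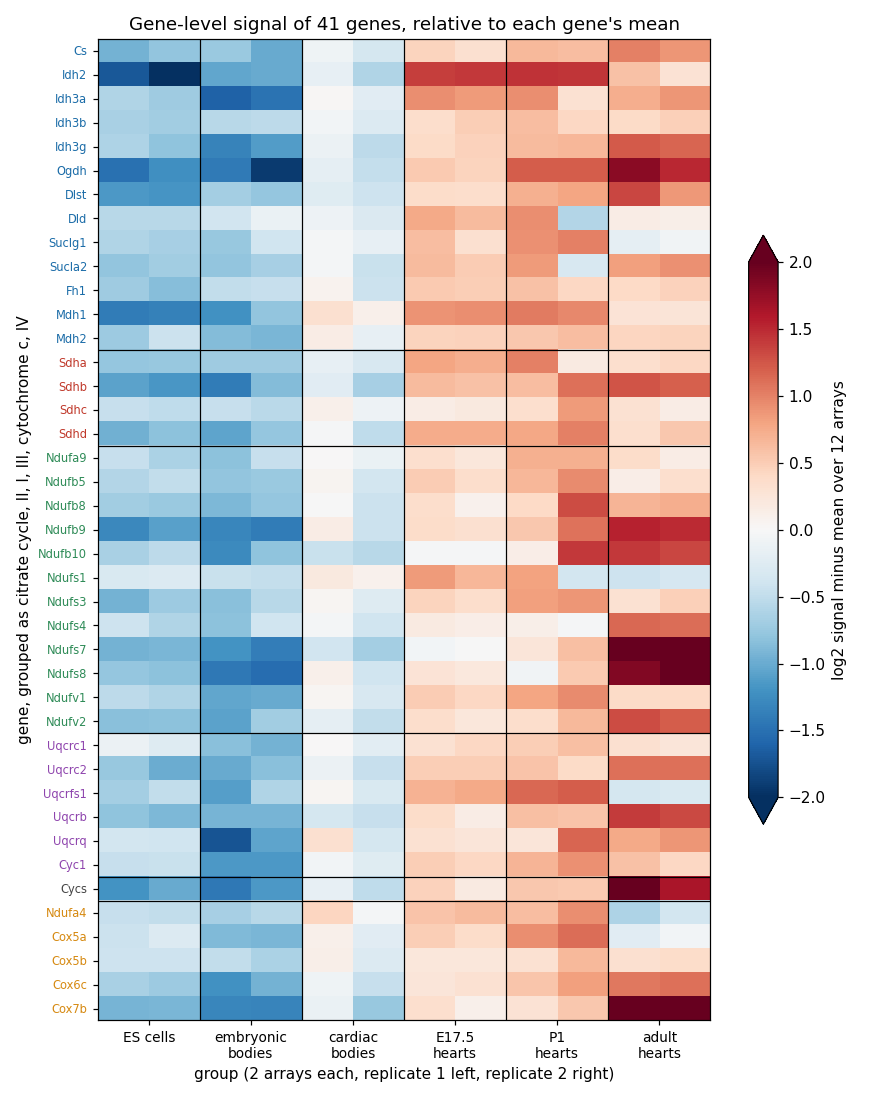
Log2 signal of each of the 41 genes (rows, label colours by enzyme group) on each of the 12 arrays (columns, replicate 1 left of replicate 2), minus that gene's mean over the arrays; colours saturate at the ends of the scale. Signals were low in ES cells and embryonic bodies and high in hearts, with cardiac bodies between them, and the adult columns differ from the P1 columns in both directions.

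**Figure D2:**
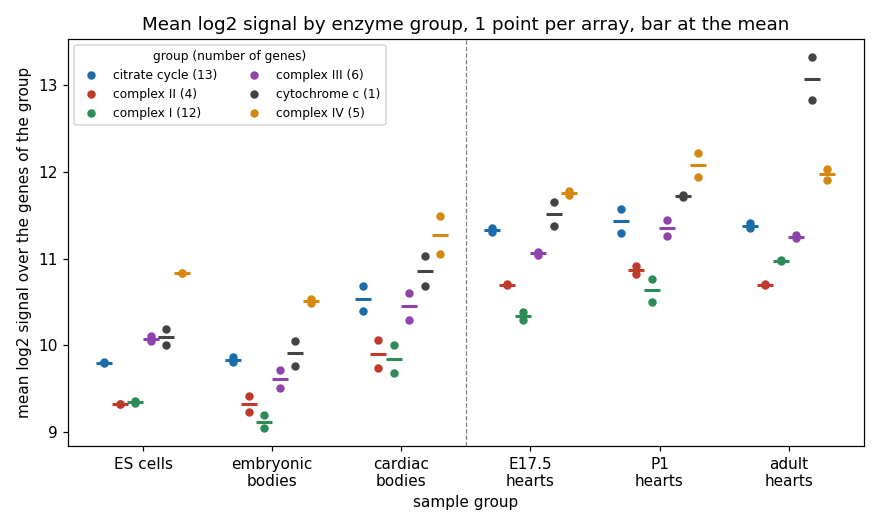
Mean log2 signal over the genes of each enzyme group, 1 point per array and a bar at the mean of the 2 arrays, by sample group; the dashed line separates cultures from hearts. All 6 enzyme groups lie higher in cardiac bodies than in embryonic bodies, and cardiac body replicate 2 lies under replicate 1 in each.

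Cardiac bodies were compared with embryonic bodies to ask which genes change in culture as heart muscle forms. All 41 genes had a higher mean signal in cardiac bodies, and in 40 of them both cardiac body arrays lay above both embryonic body arrays, as in 23.8% of all genes. Of the 41, 21 rose in the limma test and none fell, while 5.45% of all genes rose and 6.43% fell. The median difference was 0.65, against -0.01 over all genes. By enzyme group, 6 of 13 citrate cycle genes, 0 of 4 complex II genes, 4 of 12 complex I genes, all 6 complex III genes, cytochrome c and 4 of 5 complex IV genes rose.

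In the citrate cycle, Idh3a, the catalytic subunit of the NAD-linked isocitrate dehydrogenase, had 10.63 and 10.38 in cardiac bodies, against 8.98 and 9.12 in embryonic bodies. The difference of 1.46 ± 0.21 (SE of the fit, limma adjusted p = 0.000587) was the largest of the 41 and amounted to 2.74-fold. Ogdh, the first enzyme of the 2-oxoglutarate dehydrogenase complex, had 10.44 and 10.14 in cardiac bodies, against 9.21 and 8.70 in embryonic bodies, 2.51-fold higher (limma adjusted p = 0.00114). Mdh1, the cytosolic malate dehydrogenase that carries reducing equivalents toward mitochondria, had 11.69 and 11.48 in cardiac bodies, against 10.16 and 10.58 in embryonic bodies, a difference of 1.21 ± 0.18 (limma adjusted p = 0.000711). In each of these 3 genes the arrays of the stages lay clear of each other. Citrate synthase (Cs), which joins acetyl-CoA to oxaloacetate at the entry of the cycle, had 11.34 and 11.08 in cardiac bodies, against 10.69 and 10.43 in embryonic bodies, a smaller rise of 0.65 ± 0.17 (limma adjusted p = 0.0282). Mdh2 and Idh3g also rose. Dld, the subunit that the 2-oxoglutarate and pyruvate dehydrogenase complexes share, differed by 0.06 ± 0.35, and its arrays overlapped.

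None of the 4 succinate dehydrogenase genes passed the test in this comparison, although all differed in the same direction, by 0.48 to 0.68. Sdha, the flavoprotein that oxidises succinate, had 10.94 and 10.78 in cardiac bodies, against 10.38 and 10.38 in embryonic bodies. At an unadjusted p under 0.05, 34 of the 41 genes lay above and none below.

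Among complex I genes, the core iron-sulfur subunit Ndufs8 had 9.53 and 9.03 in cardiac bodies, against 8.0 and 7.9 in embryonic bodies, 2.51-fold higher (limma adjusted p = 0.00181). The accessory subunit Ndufb9 and the core subunits Ndufs7 and Ndufv1 also rose, by 0.75 to 1.20. The other 8 complex I genes differed by 0.39 to 0.61 without passing the test. In complex III, the small subunit Uqcrq had 9.68 and 9.0 in cardiac bodies, against 7.63 and 8.30 in embryonic bodies, a difference of 1.37 ± 0.31 (limma adjusted p = 0.0113). Cyc1, the cytochrome c1 that hands electrons to cytochrome c, had 11.17 and 10.98 in cardiac bodies, against 10.08 and 10.07 in embryonic bodies, a rise of 1.00 ± 0.17 (limma adjusted p = 0.00175). The embryonic body arrays of Uqcrq were far apart, those of Cyc1 almost equal.

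Cytochrome c itself (Cycs), the mobile carrier between complexes III and IV, had 11.03 and 10.68 in cardiac bodies, against 9.76 and 10.05 in embryonic bodies, 1.93-fold higher (limma adjusted p = 0.0107). Of the complex IV genes, Cox7b had 10.85 and 10.23 in cardiac bodies, against 9.68 and 9.66 in embryonic bodies, a rise of 0.87 ± 0.21 (limma adjusted p = 0.0167). Cox5a, Cox6c and Ndufa4, a subunit first assigned to complex I, rose by 0.80 to 0.84, and Cox5b differed by 0.48 without passing the test. For Cycs, Cox7b, Cox6c, Cox5b, Uqcrb and Ndufs3 the array holds further clusters under the same symbol, so signal from near-identical copies cannot be separated there.

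The number of calls rested on single arrays. Leaving 1 array out also leaves its group with 1 array, so the mean of that group is less precise for every gene. Cardiac body replicate 2 was lower than replicate 1 in all 41 genes, by a median of 0.33, while 58.3% of all genes were lower. Without cardiac body replicate 1 the count of rising genes was 5, and without embryonic body replicate 1, the globin-rich array, it was 13. The difference was above 0 in 40 of 41 genes without cardiac body replicate 1 (median 0.51), and in all 41 without replicate 2 (median 0.86). Idh3a, Ogdh, Mdh1, Ndufs8 and Cyc1 passed whichever array was left out.

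Markers moved with this comparison as well. The 12 heart muscle markers averaged 11.34 in cardiac bodies, against 5.88 in embryonic bodies, and all 12 rose. They were also lower in cardiac body replicate 2 (11.11) than in replicate 1 (11.56). The 10 pluripotency markers averaged 9.95 in cardiac bodies, against 7.65 in embryonic bodies, and 9 rose, while 8 of 10 endothelial markers and 3 of 7 erythroid markers fell. Of 8 yolk sac and endoderm markers 3 rose and 2 fell, with Afp averaging 10.03 in cardiac bodies, against 5.08 in embryonic bodies. The part of all these markers in the differences of the 41 genes was not tested.

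The remaining lists of the mitochondrial machinery split. Of 22 other complex I subunits 10 rose and none fell, and of 15 ATP synthase genes 8 rose and none fell, with a median difference of 0.65 in both lists. Atp5g1, a subunit of the rotor ring of ATP synthase, had 10.43 and 9.77 in cardiac bodies, against 8.42 and 8.49 in embryonic bodies. By contrast 3 of 75 mitochondrial ribosome genes, 3 of 41 assembly factors and 3 of 28 import and chaperone genes rose, with medians of 0.18, 0.17 and 0.25. Of 18 genes for pyruvate entry and the remaining cycle enzymes 6 rose and 2 fell. Mpc1, a subunit of the mitochondrial pyruvate carrier, rose by 1.76 ± 0.23 (limma adjusted p = 0.000321), and Pdk2, a kinase that inhibits pyruvate dehydrogenase, by 2.31 ± 0.23 (limma adjusted p = 3.32e-05). Of 18 genes for mitochondrial DNA maintenance and transcription 3 rose and 1 fell, with a median of 0.02. Among them the coactivator Ppargc1a, a known inducer of mitochondrial genes, had 6.96 and 6.31 in cardiac bodies, against 3.92 and 4.13 in embryonic bodies. Esrrg, a nuclear receptor that works with it, rose by 1.05 ± 0.21 (limma adjusted p = 0.00629).

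Against ES cells, embryonic bodies had a lower mean in 31 of the 41 genes. Of the 41, 1 rose and 6 fell (14.6%), against 12% and 8.61% of all genes, and the median difference was -0.14, against -0.03 over all genes. Idh2, the NADP-linked isocitrate dehydrogenase of the matrix, had 9.80 and 9.84 in embryonic bodies, against 9.15 and 8.79 in ES cells, and rose by 0.85 ± 0.20 (limma adjusted p = 0.00835). Idh3a moved the other way, with 8.98 and 9.12 in embryonic bodies, against 10.00 and 9.90 in ES cells. The 5 further genes that fell were Ndufs8 of complex I, Uqcrc1, Uqcrq and Cyc1 of complex III, and Cox5a of complex IV. Uqcrq had 7.63 and 8.30 in embryonic bodies, against 8.98 and 8.96 in ES cells, and fell by 1.00 (limma adjusted p = 0.0355). Cox5a fell by 0.55 and Ndufs8 by 0.67 (limma adjusted p = 0.0436 and 0.0491).

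None of those 7 calls passed with every single array left out. Of the 6 falls, none was left on omitting ES replicate 1, and there were 2 on omitting either ES replicate 2 or embryonic body replicate 1. There were 3 without embryonic body replicate 2 and 3 without either E17.5 array, and the call of Idh2 was lost without ES replicate 2. Cell type markers moved with this comparison: all 10 pluripotency markers fell, with a median of -3.29, while 8 of 10 endothelial, 6 of 10 fibroblast and 4 of 7 erythroid markers rose. Their part in the differences was not tested. Among the wider lists, 15 of 75 mitochondrial ribosome genes and 7 of 28 import genes fell and none rose. Pdk1, another kinase of pyruvate dehydrogenase, fell by 1.44 (limma adjusted p = 0.00445).

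Against ES cells, cardiac bodies had a higher mean in all 41 genes, and 8 rose while none fell by limma, against 6.19% and 3.61% of all genes. At an unadjusted p under 0.05, 28 lay above and none below. The median difference was 0.50, against -0.05 over all genes. Mdh1 had 11.69 and 11.48 in cardiac bodies, against 9.97 and 10.03 in ES cells, a rise of 1.58 ± 0.18 (limma adjusted p = 0.000102). Idh2 had 10.68 and 10.24 in cardiac bodies, against 9.15 and 8.79 in ES cells. Ogdh, Dlst (the second enzyme of the 2-oxoglutarate dehydrogenase complex), Cs, Ndufb9, Ndufs3 and Cycs rose by 0.64 to 1.04, and no gene of complexes II, III or IV was called. Ndufb9 had 9.96 and 9.38 in cardiac bodies, against 8.53 and 8.72 in ES cells. Only the calls of Mdh1 and Idh2 held without any single array. The count was 2 without ES replicate 1 or cardiac body replicate 1, 4 without ES replicate 2, and 16 without either P1 array.

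The steps of the culture series were set against each other in the same fit. The difference of cardiac bodies from embryonic bodies exceeded that of embryonic bodies from ES cells in 15 of the 41 genes and fell short of it in none, against 7.84% and 10.9% of all genes. Both steps share the embryonic body arrays, and without embryonic body replicate 1 the count was 6. Uqcrq (2.38 ± 0.53, limma adjusted p = 0.00719), Idh3a (2.35 ± 0.36, limma adjusted p = 0.000579) and Ndufs8 (2.00 ± 0.38, limma adjusted p = 0.00281) had the largest contrasts. All 3 were among the genes that fell in embryonic bodies and rose in cardiac bodies.

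Cardiac bodies were set beside E17.5 hearts, the earliest heart stage in the study. Every one of the 41 genes had a lower mean in cardiac bodies, and in 40 both cardiac body arrays lay below both heart arrays, as in 31.8% of all genes. Of the 41, 23 fell and none rose in the limma test, while 11.6% of all genes fell and 12.1% rose. At an unadjusted p under 0.05, 32 lay below and none above. The median difference was -0.60, against -0.02 over all genes. The falls covered 10 of 13 citrate cycle genes and 3 of 4 complex II genes, against 3 of 12 complex I genes, with 4 of 6 in complex III, Cycs, and 2 of 5 in complex IV.

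**Figure D3:**
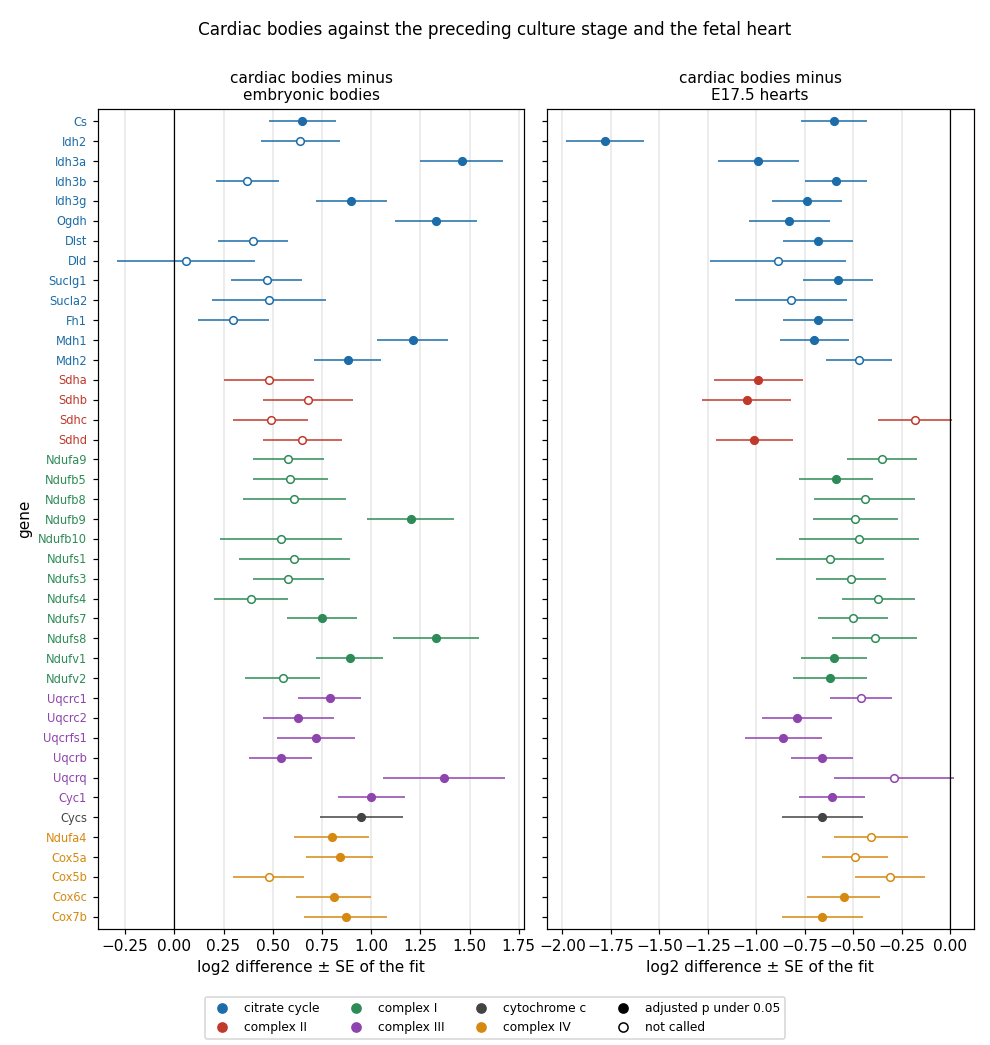
Log2 differences of the 41 genes, with the SE of the fit, for cardiac bodies minus embryonic bodies (left) and cardiac bodies minus E17.5 hearts (right); filled points passed an adjusted p of 0.05. All points on the left lie above 0 and all on the right below 0, with Idh2 at -1.78 the farthest from E17.5 hearts.

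Idh2 showed the largest deficit, with 10.68 and 10.24 in cardiac bodies, against 12.23 and 12.25 in E17.5 hearts, a difference of -1.78 ± 0.20 (limma adjusted p = 4.73e-05). Idh3a had 10.63 and 10.38 in cardiac bodies, against 11.53 and 11.45 in E17.5 hearts, and fell by 0.99 (limma adjusted p = 0.00404). Cs fell by 0.60 and Mdh1 by 0.70 (limma adjusted p = 0.0239 and 0.0118). The citrate cycle genes that did not pass were Dld, Sucla2 (a subunit of succinyl-CoA ligase) and Mdh2, at -0.89, -0.82 and -0.47. Dld had 9.96 and 9.77 in cardiac bodies, against 10.81 and 10.69 in E17.5 hearts. Sucla2 had 9.67 and 9.27, against 10.35 and 10.22. Both differed by more than Cs, which passed. The fit estimates the spread of a gene over all 6 groups together. The P1 arrays of Dld (10.98 and 9.47) and Sucla2 (10.57 and 9.4) lay far apart, which widens the SE of these genes here.

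Complex II, which links the cycle to the chain and had no call between the 2 culture stages, was called here in 3 of its 4 subunits. Sdhb, the iron-sulfur subunit, had 9.09 and 8.64 in cardiac bodies, against 9.94 and 9.89 in E17.5 hearts, and fell by 1.05 (limma adjusted p = 0.00516). Sdhd, a membrane anchor, had 10.25 and 9.76 in cardiac bodies, against 11.01 and 11.01 in E17.5 hearts, and fell by 1.01 (limma adjusted p = 0.00279). Sdha had 10.94 and 10.78 in cardiac bodies, against 11.88 and 11.82 in E17.5 hearts. These 3 genes lay far below their heart levels on both arrays. Sdhc, the other membrane anchor, had 9.96 and 9.75 in cardiac bodies, against 10.00 and 10.05 in E17.5 hearts, a difference of -0.18 ± 0.19.

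The promoter windows of the genes, which differed in 1 direction between cardiac bodies and E17.5 hearts, were searched for 3 motifs known from nuclear-encoded mitochondrial genes. RefSeq windows (build GRCm38.p6, 250 bases before to 50 after each start) were given for 33 of the 42 genes, and both strands were searched. The NRF-1 palindrome, GCGC followed by any 2 bases and GCGC again, was found in 6 of 33 windows (18.2%), against 7.0% of all 27025 gene windows and 10.5% of those of tested genes. The ETS core bound by GABP, CCGGAAG, was found in 7 of 33 (21.2%), against 9.93% and 13.6%. The estrogen-related receptor element, TCAAGGTCA, was found in 1 of 33, that of Sdhd, against 0.466% and 0.346%. The windows of Sdha, with 3 separate NRF-1 matches, of Sdhd, with all 3 motifs, of Ndufv2, with 2 overlapping NRF-1 matches, and of Idh3g, with an ETS match, are printed as the 250 bases before the start, 5′ to 3′ on the minus strand, with matches on either strand in capitals. The Sdhd receptor element lies 36 to 44 bases from the start, outside the printed stretch. A match describes the letters of the window and not binding.
Sdha (chr13:74350241-74350490, minus strand): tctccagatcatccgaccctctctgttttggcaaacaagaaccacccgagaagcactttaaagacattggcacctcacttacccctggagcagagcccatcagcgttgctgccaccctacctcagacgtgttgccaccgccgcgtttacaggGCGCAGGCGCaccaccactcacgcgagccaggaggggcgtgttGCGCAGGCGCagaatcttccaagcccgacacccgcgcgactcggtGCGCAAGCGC
Sdhd (chr9:50603850-50604099, minus strand): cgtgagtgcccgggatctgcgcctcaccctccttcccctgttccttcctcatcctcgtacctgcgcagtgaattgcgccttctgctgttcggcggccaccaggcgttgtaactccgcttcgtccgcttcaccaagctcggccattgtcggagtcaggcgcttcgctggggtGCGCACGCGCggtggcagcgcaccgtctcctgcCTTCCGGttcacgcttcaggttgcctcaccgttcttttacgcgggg
Ndufv2 (chr17:66101560-66101809, minus strand): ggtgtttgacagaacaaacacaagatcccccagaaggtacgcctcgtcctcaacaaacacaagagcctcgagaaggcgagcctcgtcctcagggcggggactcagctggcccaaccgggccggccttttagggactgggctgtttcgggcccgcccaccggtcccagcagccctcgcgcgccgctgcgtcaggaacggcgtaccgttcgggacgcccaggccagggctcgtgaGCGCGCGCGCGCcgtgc
Idh3g (chrX:73786898-73787147, minus strand): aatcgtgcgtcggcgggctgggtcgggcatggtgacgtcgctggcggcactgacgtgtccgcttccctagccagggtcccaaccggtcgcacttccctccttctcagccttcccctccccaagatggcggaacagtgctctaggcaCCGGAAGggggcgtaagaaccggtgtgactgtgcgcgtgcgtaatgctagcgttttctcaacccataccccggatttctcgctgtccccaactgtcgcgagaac

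In complex I the 3 genes that fell against E17.5 hearts were the core subunits Ndufv1 and Ndufv2 and the accessory subunit Ndufb5. Ndufv2 had 10.79 and 10.48 in cardiac bodies, against 11.32 and 11.20 in E17.5 hearts, and fell by 0.62 (limma adjusted p = 0.031). The core subunit Ndufs1 also differed by -0.62 (10.9 and 10.8, against 11.57 and 11.38) without passing. Its P1 arrays, at 11.52 and 10.35, lay far apart, which widens its SE. In complex III, Uqcrfs1, the Rieske iron-sulfur protein, had 8.58 and 8.24 in cardiac bodies, against 9.24 and 9.30 in E17.5 hearts, and fell by 0.86 (limma adjusted p = 0.00659). Uqcrc2, Uqcrb and Cyc1 also fell, while Uqcrq, at -0.29 ± 0.31, did not pass. Cycs had 11.03 and 10.68 in cardiac bodies, against 11.65 and 11.38 in E17.5 hearts (limma adjusted p = 0.038), and Cox7b had 10.85 and 10.23, against 11.33 and 11.09 (limma adjusted p = 0.0356).

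These calls also rested on single arrays: the 23 falls became 2 without cardiac body replicate 2, 7 without E17.5 replicate 1 and 8 without E17.5 replicate 2. Idh2 and Sdhd passed whichever array was left out, and the median difference was -0.74 without cardiac body replicate 1 and -0.46 without replicate 2. Markers of other cell types were higher in the hearts: 10 fibroblast markers averaged 5.32 in cardiac bodies, against 9.92 in E17.5 hearts, and 10 endothelial markers 5.58, against 8.84. The pluripotency markers averaged 9.95 in cardiac bodies, against 5.21 in E17.5 hearts, and 8 of 12 heart muscle markers fell. Their part in the result was not tested.

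Of the wider lists against E17.5 hearts, 9 of 15 ATP synthase genes and 8 of 22 other complex I subunits fell and none rose. Mitochondrial ribosome genes did not share that direction, with 7 of 75 rising and 2 falling and a median of 0.09. Of 28 import and chaperone genes 2 rose and none fell. Tomm20, a receptor of the outer membrane import pore, had 10.50 and 10.56 in cardiac bodies, against 9.14 and 8.99 in E17.5 hearts. Ppargc1a had 6.96 and 6.31 in cardiac bodies, against 9.39 and 9.05 in E17.5 hearts, and Pdk4 fell by 1.83 (limma adjusted p = 6.83e-05).

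Against adult hearts the cardiac bodies were lower in 36 of 41 genes. Of the 41, 28 fell and 1 rose, against 24.3% and 23% of all genes, with a median of -0.82, against -0.09 over all genes. Ndufs7, the core subunit next to the ubiquinone site of complex I, had 10.47 and 10.18 in cardiac bodies, against 13.27 and 13.20 in adult hearts, and fell by 2.91 (limma adjusted p = 8.4e-08). Cox7b had 10.85 and 10.23 in cardiac bodies, against 12.98 and 13.09 in adult hearts. Cycs had 11.03 and 10.68, against 13.32 and 12.83 in adult hearts. These 3 genes were several-fold lower on every cardiac body array. Ogdh fell by 1.99, Uqcrb by 1.75 and Sdhb by 1.67 (limma adjusted p = 5.97e-06, 1.75e-06 and 6e-05). The single gene that rose was Ndufa4, with 11.95 and 11.48 in cardiac bodies, against 10.91 and 11.16 in adult hearts (0.68 ± 0.19, limma adjusted p = 0.0115). The falls numbered 17 without cardiac body replicate 2, and the call of Ndufa4 was lost without cardiac body replicate 1 or adult replicate 1. Of the markers, 9 of 10 fibroblast, all 10 endothelial and all 8 macrophage genes fell and 9 of 10 pluripotency genes rose, and their part in the result was not tested.

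Between E17.5 and P1, the days around birth, no gene of the 41 passed the limma test in either direction, against 2.08% rising and 3.05% falling of all genes. At an unadjusted p under 0.05, 12 lay above and none below. The median difference was 0.25, against 0.01 over all genes, and 32 of 41 differences were above 0. Ogdh had 11.83 and 11.83 at P1, against 11.15 and 11.07 at E17.5, and Cox5a, a matrix-side subunit of complex IV, had 11.30 and 11.48, against 10.86 and 10.73. These were the genes nearest the threshold (0.72 ± 0.21 and 0.60 ± 0.17, limma adjusted p = 0.0711 and 0.0733). Cs had 12.08 and 12.05 at P1, against 11.88 and 11.75 at E17.5. Mdh1 had 12.41 and 12.33, against 12.27 and 12.30, and Cycs had 11.73 and 11.71, against 11.65 and 11.38. In all of these genes both P1 arrays lay above both E17.5 arrays, as they did in 27 of the 41 and in 22.0% of all genes.

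The P1 arrays differed from each other in 11 of the 41 genes by over 0.5, as in 23.2% of all genes. Dld had 10.98 in P1 replicate 1 and 9.47 in replicate 2, Ndufs1, the largest core subunit of complex I, had 11.52 and 10.35, and Sdha had 12.11 and 11.28. Sucla2 was lower in replicate 2 by 1.17 and Idh3a by 0.62. Going the other way, Ndufb10 had 6.72 in replicate 1 and 7.99 in replicate 2, and Uqcrq, Ndufb8, Ndufs8, Ndufb9 and Sdhc were higher in replicate 2 by 0.92, 0.91, 0.60, 0.54 and 0.52. Without P1 replicate 1, 5 genes rose (Sdhc, Ndufb8, Ndufb10, Ndufs7 and Cox5a) and 3 fell (Dld, Sucla2 and Ndufs1). In that setting 1077 of all 19920 genes rose and 1979 fell, against 414 and 607 with both arrays. Without either embryonic body array Ogdh alone passed (limma adjusted p = 0.048). Without P1 replicate 2, no gene was called, the median difference was 0.20 and 38 of 41 differences were above 0.

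Of the 18 genes for pyruvate entry and the remaining cycle enzymes, 3 rose at P1 and none fell, with a median difference of 0.15. Pdk4, which restrains pyruvate entry, had 11.09 and 10.74 at P1, against 8.42 and 8.27 at E17.5 (2.57 ± 0.21, limma adjusted p = 3.23e-05). Pdk2 had 10.67 and 11.34 at P1, against 9.47 and 9.37 at E17.5. Of 18 genes for mitochondrial DNA maintenance and transcription 1 rose and none fell, with a median of -0.18 and 6 of 18 differences above 0. The gene that rose was the coactivator Ppargc1b, by 1.41 ± 0.24 (limma adjusted p = 0.00459). The 22 other complex I subunits had a median difference of 0.36, the 15 ATP synthase genes one of 0.23 and the 28 import and chaperone genes one of 0.01.

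**Figure D4:**
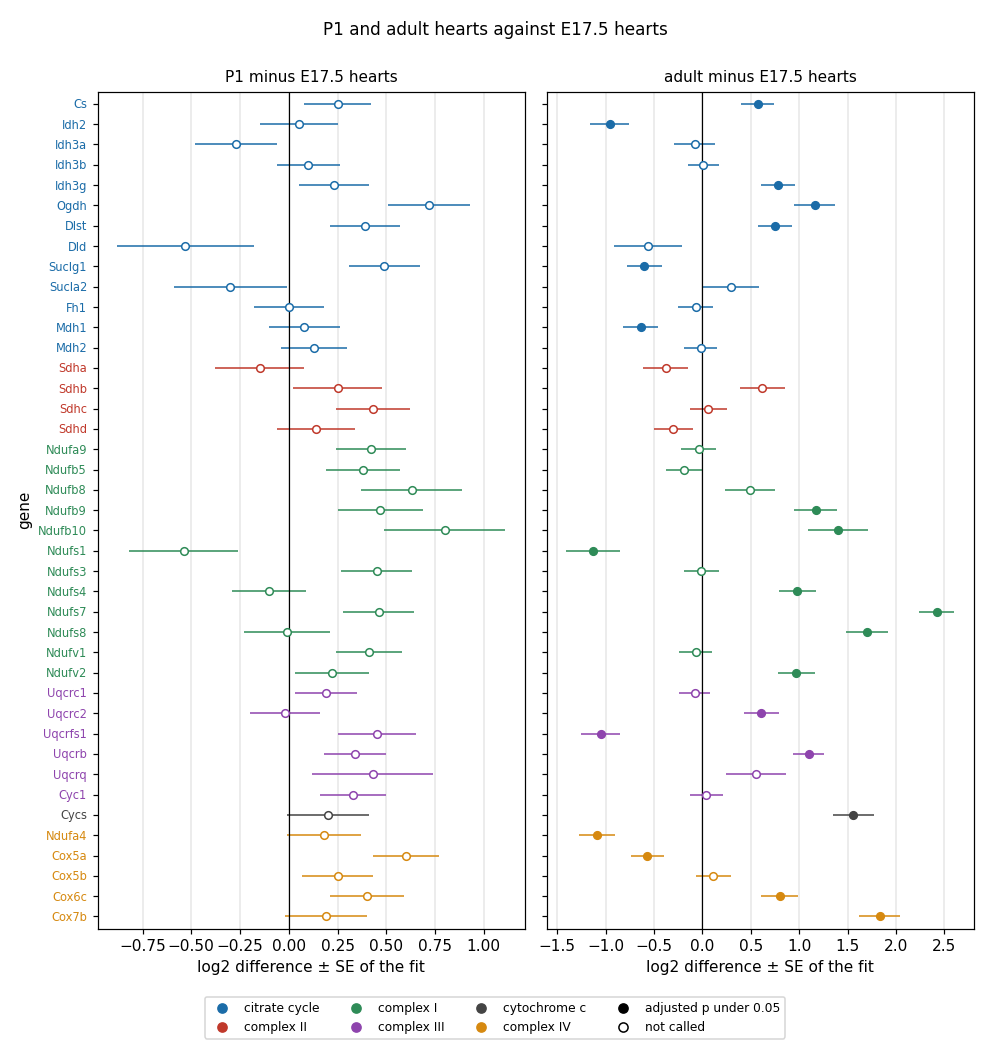
Log2 differences of the 41 genes, with the SE of the fit, for P1 minus E17.5 hearts (left) and adult minus E17.5 hearts (right); filled points passed an adjusted p of 0.05. No point is filled on the left, and on the right 15 filled points lie above 0 and 7 below, with complex I subunits among the highest.

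Adult hearts differed from E17.5 hearts in both directions. Of the 41 genes 15 rose (36.6%) and 7 fell (17.1%), against 18.1% and 18% of all genes. The share of falls was thus near that of genes at large. The median difference was 0.06, against 0.05 over all genes. Against P1 hearts 10 rose (24.4%) and 7 fell (17.1%), against 15.6% and 14.7% of all genes, with a median of -0.07, against 0.04. The adult arrays are shared by both comparisons.

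In the citrate cycle, Ogdh had 12.42 and 12.12 in adults, against 11.15 and 11.07 at E17.5, a rise of 1.16 ± 0.21 (limma adjusted p = 0.000843). Cs had 12.44 and 12.32 in adults, against 11.88 and 11.75 at E17.5, and rose by 0.57 ± 0.17 (limma adjusted p = 0.0223), while against P1 it differed by 0.31 (limma adjusted p = 0.205). Dlst and Idh3g rose against E17.5 as well. Idh2 went the other way, with 11.43 and 11.13 in adults, against 12.29 and 12.28 at P1 and 12.23 and 12.25 at E17.5 (limma adjusted p = 0.00202 and 0.00216). Mdh1 had 11.65 and 11.64 in adults, against 12.41 and 12.33 at P1, and fell by 0.72 (limma adjusted p = 0.00846). Suclg1, the shared subunit of succinyl-CoA ligase, had 9.34 and 9.45 in adults, against 10.44 and 10.53 at P1, and fell by 1.09 (limma adjusted p = 0.000687). Of the 13 genes grouped with the cycle, Ogdh, Dlst, Idh3g and Cs thus lay higher in adults than in E17.5 hearts. Idh2, Suclg1 and the cytosolic Mdh1 lay lower. Idh3a and Mdh2, the matrix malate dehydrogenase, differed by -0.08 and -0.02 and were not called. Dld, the remaining subunit of the 2-oxoglutarate dehydrogenase complex, had 10.21 and 10.18 in adults, against 10.81 and 10.69 at E17.5, a difference of -0.56 ± 0.35 that did not pass. Its P1 arrays, far apart at 10.98 and 9.47, widen that SE. None of the 4 complex II genes was called by limma in either comparison. At an unadjusted p under 0.05 there was 1 in each, Sdhb against E17.5 (0.62) and Sdhd against P1 (-0.44). Sdha had 11.43 and 11.51 in adults, against 12.11 and 11.28 at P1 and 11.88 and 11.82 at E17.5.

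Complex I held 6 rises and 1 fall against E17.5. Ndufs7 had 13.27 and 13.20 in adults, against 11.10 and 11.46 at P1 and 10.80 and 10.85 at E17.5, which was 5.34-fold higher than at E17.5 (2.42 ± 0.18, limma adjusted p = 1.07e-06). Ndufs8 had 11.28 and 11.45 in adults, against 9.35 and 9.95 at P1 and 9.70 and 9.63 at E17.5, and Ndufs4, an accessory subunit of the NADH-oxidising arm, had 11.31 and 11.28, against 10.28 and 10.14 at P1 and 10.34 and 10.30 at E17.5. These 3 genes separated adults from both younger stages on every array. Ndufb9, Ndufb10 and Ndufv2 rose against E17.5 by 0.97 to 1.40. Ndufs1 had 10.30 and 10.38 in adults, against 11.57 and 11.38 at E17.5, and fell by 1.13 (limma adjusted p = 0.00753). Its P1 arrays, at 11.52 and 10.35, covered most of that range. Ndufb5 had 10.87 and 11.06 in adults, against 11.39 and 11.68 at P1, and fell by 0.57 (limma adjusted p = 0.0376).

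In complex III the Rieske protein Uqcrfs1 fell while the small subunit Uqcrb rose. Uqcrfs1 had 8.19 and 8.25 in adults, against 9.69 and 9.76 at P1 and 9.24 and 9.30 at E17.5, which is 0.48 times the E17.5 signal (-1.05 ± 0.20, limma adjusted p = 0.00108). Uqcrb had 12.75 and 12.67 in adults, against 11.96 and 11.93 at P1 and 11.72 and 11.50 at E17.5 (1.10 ± 0.16 against E17.5, limma adjusted p = 0.000169). Cycs had 13.32 and 12.83 in adults, against 11.73 and 11.71 at P1 and 11.65 and 11.38 at E17.5, 2.95-fold higher than at E17.5 (limma adjusted p = 9.75e-05). A further Cycs cluster moved alike, with 12.67 and 12.20 in adults, against 11.13 and 10.84 at E17.5. Another, dim cluster ran the other way, with 4.88 and 5.74 in adults, against 6.56 and 6.26 at E17.5, and which cluster reads the gene and which a near-identical copy was not tested.

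Complex IV also split. Cox7b had 12.98 and 13.09 in adults, against 11.27 and 11.53 at P1 and 11.33 and 11.09 at E17.5, 3.55-fold higher than at E17.5 (limma adjusted p = 2.66e-05). Ndufa4 had 10.91 and 11.16 in adults, against 12.15 and 12.46 at P1 and 12.10 and 12.16 at E17.5, and fell by 1.09 against E17.5 (limma adjusted p = 0.000796). Cox6c rose by 0.80 and Cox5a fell by 0.57 against E17.5 (limma adjusted p = 0.00477 and 0.0232), and Cox5b differed by 0.11 without passing. At gene level, complexes I, III and IV thus each held subunits that rose and subunits that fell. Over the 41 genes the share that fell against E17.5, 17.1%, was near the 18% of all genes.

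Of the 22 calls against E17.5, 15 passed whichever array was left out, and of the 17 against P1, 12 did. The falls against E17.5 numbered 3 without E17.5 replicate 1 and 4 without adult replicate 1, and the rises against P1 numbered 6 without adult replicate 1. The adult hearts also carried more macrophage transcripts, with 8 markers averaging 8.11 in adults, against 6.43 at P1 and 6.44 at E17.5. The 10 fibroblast markers split: against either younger stage 5 fell and 2 rose. Their average was 8.80 in adults, against 9.70 at P1 and 9.92 at E17.5. Heart muscle markers averaged 11.74 in adult replicate 1 and 12.36 in adult replicate 2, against 12.80 and 12.68 at P1 and 12.47 and 12.37 at E17.5. The average of adult replicate 2 thus lay near the E17.5 arrays and below the P1 arrays, and that of replicate 1 below all 4. The gap between the adult averages lay in Myl7 (5.42 and 11.27) and Nppa (10.10 and 12.79). Myh6 (12.71 and 12.51) and Mybpc3 (11.37 and 10.90) were higher in replicate 1, and Tnnt2 (13.36 and 13.45) and Pln (13.28 and 13.45) slightly lower. The part of the markers in the result was not tested.

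The exon-level values of the same arrays show how evenly the probe sets of each gene moved. Of the 41 genes, 37 had at least 4 probe sets, 372 in all, Uqcrfs1, Uqcrb, Uqcrq and Cox7b being the others. Between adult and E17.5 hearts the probe sets of a gene differed by a median SD of 0.80 over the 37 genes, against 0.86 over all 15108 genes. Between P1 and E17.5 hearts that SD was 0.22, against 0.45 over all genes. The spread was thus wider in comparisons with adult arrays, for these genes and for genes at large.

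**Figure D5:**
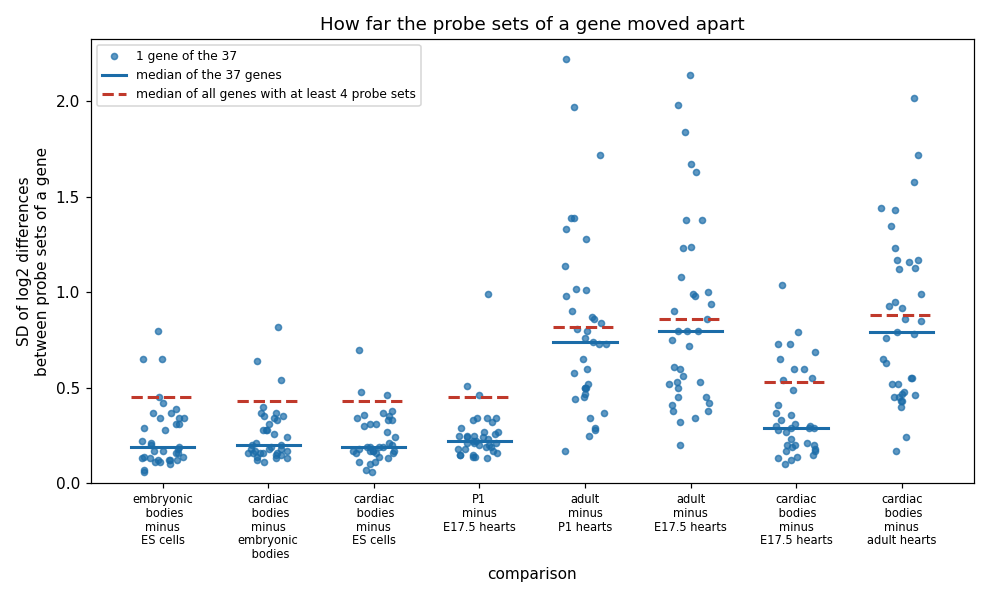
SD of the log2 differences of the probe sets of a gene, 1 point for each of the 37 genes with at least 4 probe sets, in each of the 8 comparisons; solid bars mark the median of the 37 genes and dashed bars that of all 15108 genes. The 3 comparisons with adult arrays lie at medians of 0.74 to 0.80, the other 5 at 0.19 to 0.29.

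For each array the splicing index was the log2 signal of a probe set less the log2 signal of its gene. A probe set was called where the index changed by 1 or more and the adjusted p was under 0.05. Of the tested probe sets of these genes 45 of 362, in 22 genes, were called between adults and E17.5, against 16.5% of all probe sets. Between adults and P1 41 of 363 were called, in 21 genes, against 13.5% of all, and between cardiac bodies and adults 50 of 360, in 23 genes, against 15.9%. In the 5 comparisons without adult arrays limma called none of them, and at an unadjusted p under 0.05 there were 6 to 18 in each. Of all probe sets, 0.0297% were called between embryonic bodies and ES cells, 0.0032% between cardiac and embryonic bodies, 0.104% between cardiac bodies and ES cells, 0% between P1 and E17.5 hearts and 0.244% between cardiac bodies and E17.5 hearts. The shares in these genes were thus no higher than the background. The labels name no batch, and the growth text names hearts of E17.5 and P1 but not adults, so adult age and any technical difference of the adult arrays cannot be told apart.

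Among the genes called at gene level, Suclg1 had the widest range of probe set differences. Its probe set 10539160 had 12.45 and 12.53 in adults, against 8.88 and 9.03 at E17.5, while its probe set 10539168 had 5.30 and 5.58 in adults, against 8.51 and 8.30 at E17.5. The index changed by 4.13 ± 0.28 and -2.36 ± 0.22 (limma adjusted p = 0.000468 and 0.000897), so the gene-level fall averages probe sets that moved in opposite directions. Cox5a showed the same, with 4 of 6 probe sets moving with the gene and differences from -2.33 to 2.09. Ndufa4 had 4 of 5 moving with the gene and differences from -2.0 to 0.99. Idh3g, which rose at gene level, had 10 of 12 moving with the gene and differences from -2.80 to 1.86. Of genes not called at gene level, Ndufa9 had probe sets from -0.79 to 5.88, Cox5b from -1.36 to 3.43 and Cyc1 from -2.28 to 1.21.

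Of the 19 genes called against E17.5 that had at least 4 probe sets, 5 had every probe set moving with the gene, all of them complex I subunits: Ndufs7 (7 of 7), Ndufs8 (8 of 8), Ndufs4 (6 of 6), Ndufb9 (4 of 4) and Ndufb10 (4 of 4). The probe sets of Ndufs8 differed by 1.61 to 2.59, those of Ndufb9 by 0.86 to 1.80 and those of Ndufs7 by 1.05 to 3.39. Those of Ndufs4 differed by 0.71 to 3.17. The range was widest in Ndufb10, 0.82 to 5.05, a gene with low signal at E17.5 (6.55 and 6.56). Ogdh had 29 of 31 probe sets moving with the gene, Ndufs1 18 of 20 and Uqcrc2 16 of 17. In none of the 19 did the median of the probe sets run against the gene. Both levels were read from the same arrays, so this is not an independent check. Between cardiac and embryonic bodies, 15 of the 17 called genes with at least 4 probe sets had every probe set moving with the gene, and between cardiac bodies and E17.5 hearts 14 of 20 had.

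The 2 heart steps were also compared, as adult minus P1 against P1 minus E17.5, steps that share the P1 arrays. The later step was the more positive in 4 of the 41 genes (Ndufs4, Ndufs7, Ndufs8 and Cox7b) and the more negative in 4 (Suclg1, Uqcrfs1, Ndufa4 and Cox5a), against 7.06% and 5.65% of all genes. Uqcrfs1 had the largest contrast, -1.96 ± 0.34 (limma adjusted p = 0.00352), its later step being -1.51 and its earlier step 0.45. Ndufs8, with a later step of 1.71 and an earlier step of -0.01, had a contrast of 1.72 ± 0.38 (limma adjusted p = 0.0124). Without P1 replicate 1 there were 8 more negative genes, and without E17.5 replicate 1 there were 2 more positive genes.

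Among the wider lists in adults against E17.5, 9 of 22 other complex I subunits rose and 2 fell, with Ndufb3 rising by 2.31 ± 0.25 and Ndufb7 falling by 1.26 (limma adjusted p = 1.66e-05 and 0.000323). Import and chaperone genes leaned the other way, with 3 of 28 rising, 13 falling and a median of -0.52. Hspd1, the matrix chaperonin, fell by 1.41 (limma adjusted p = 0.00166). Mitochondrial ribosome genes split evenly, with 19 of 75 rising and 19 falling, and assembly factors had 18 of 41 rising and 10 falling. Pyruvate entry and the remaining cycle enzymes had 6 of 18 rising and 7 falling, and mitochondrial DNA maintenance and transcription 3 of 18 rising and 6 falling. Among the genes that rose, Mpc1 had 12.02 and 11.93 in adults, against 8.92 and 8.59 at E17.5 (3.22 ± 0.23, limma adjusted p = 7.83e-07), and Ppargc1a had 10.59 and 10.44, against 9.39 and 9.05. The genes of the mitochondrial genome, which encode further subunits of complexes I, III and IV and of ATP synthase, were not analysed here.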

How the data were processed

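Signals were measured on 12 Affymetrix mouse gene arrays, 2 in each of 6 groups set by the labels. The deposited values are log2 signals. RMA and Affymetrix Power Tools are named for them, per the submitters' processing notes, with versions not given in the sources used here. Each array was deposited at gene level and at exon level, and the values were used without further normalization or a test against background. Array number limits the precision.

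Clusters with 1 gene symbol were kept, and for the 1015 genes with several clusters that with the highest mean. Limma 3.58.1 in R 4.3.3 (lmFit, eBayes) was fitted to all 12 arrays with 6 group means (6 residual degrees of freedom, prior 6.2), giving 8 comparisons and 2 contrasts of steps with Benjamini-Hochberg adjustment within each over 19920 genes. The splicing index was fitted likewise to genes with at least 4 probe sets, the gene being at or above the median level in both groups and the probe set in at least 1. The procedure was tested on simulated data for adult minus E17.5 hearts. At gene level 6% of differences of 0.5, 62% of 1 and 100% of 2 were called. For the splicing index, 0% of changes of 1, 12% of 2 and 70% of 3 were called. A small difference without a call is therefore not shown to be absent.

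The members and lists were chosen with earlier results of these data known. All members may be named; in full are given, per comparison, those of each enzyme group with the largest called change in each direction, with Cs, Cycs, Mdh1 and Sdha throughout, where not given before, and up to 4 called genes per wider list. Named after their values were seen were genes near a threshold, genes with replicates apart and genes with probe sets apart. Wider lists are described by counts and medians and not tested as sets. The main fit did not pair samples by replicate number. Deviations of same-numbered arrays correlated at -0.18 to 0.29 over 15 pairs of groups, and 2 pairs exceeded 0.1. Such correlations cannot exclude that same-numbered samples shared a culture, litter or day, which the labels do not give. Tables and plots were made in Python 3.11.15 (numpy 2.4.6; pandas 2.3.3; matplotlib 3.10.9).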

Additional observations from a re-analysis of the deposited data

Results flagged for a closer look

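The contrasts of consecutive steps, tested in the limma fit, differed in some of the 41 genes. In the heart series 4 genes had a more positive and 4 a more negative step from P1 to adult than from E17.5 to P1, 9.8% each way, against 7.06% and 5.65% of all genes. In culture 15 genes had a more positive step from embryonic to cardiac bodies than from ES cells to embryonic bodies, and none a more negative one, against 7.84% and 10.9% of all genes. That count was 6 without embryonic body replicate 1. Each pair of steps shares the arrays of its middle stage.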

How the results depend on the processing

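With 2 arrays a group, most counts of called genes moved when an array was left out. Each such setting leaves 1 array in a group, which lowers the precision for all genes and not only for these. Lowest and highest counts over the 12 arrays left out in turn were, for rises, 0 and 1 in embryonic bodies against ES cells, 5 and 31 in cardiac bodies against embryonic bodies, 2 and 16 in cardiac bodies against ES cells, 0 and 5 in P1 against E17.5 hearts, 6 and 10 in adult against P1 hearts, and 0 and 2 in cardiac bodies against adult hearts. For falls they were 0 and 6 in embryonic bodies against ES cells, 0 and 3 in P1 against E17.5, 3 and 8 in adult against E17.5, 2 and 30 in cardiac bodies against E17.5 and 17 and 30 in cardiac bodies against adults. For the steps they were 2 and 5 more positive and 4 and 8 more negative genes in hearts, and 6 and 17 more positive ones in culture. With the median of exon-level probe sets, which covers fewer of the genes, the rises were 4 in cardiac bodies against ES cells, the falls 3 in embryonic bodies against ES cells, 4 in adult against E17.5 and 14 in cardiac bodies against E17.5, and the heart steps 2 and 2. Rises in cardiac bodies against ES cells were 13 with quantile normalization and 13 with an intensity trend in the prior, against 8 as reported; the cause was not tested. The replicate block left 21 rises in cardiac bodies against embryonic bodies and 20 falls against E17.5 hearts, and moved no count by over 1.5 times. Of 5904 values of single genes recomputed, 5447 stayed on their side of the threshold, 293 lost it, 163 gained it and 1 turned: Dld in adult against P1 hearts, 0.73 without P1 replicate 1 and -0.79 without P1 replicate 2, against -0.03 as reported. The member probe sets called for a changed splicing index, 136 over the 3 adult comparisons, numbered 142 without a level filter and 161 against the median of the other probe sets.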
